A study of Mus musculus with 6 samples.

Results

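Rab GTPases are small membrane-bound switches, and the genes described here are those whose mouse symbol is Rab followed by a number and at most 1 letter. The deposited table of 20756 genes held 55 of them. Interactors with longer symbols, such as the Rab11 family interacting proteins, were kept apart as regulators and effectors. The series measured RNA in mouse tumor organoids, 3-dimensional cultures that were grown from an intestinal tumor that had spread to the liver of a C57BL/6 mouse. Of 6 libraries, 3 carried a scrambled guide RNA (sgScr, spelled sgScbr in its genotype label and described as WT) and 3 a guide against Prkci, the gene of atypical protein kinase C lambda/iota (sgPrkci, described as a PKClambda knockout). Both groups grew untreated in basement membrane extract with EGF and were collected 72 h after plating. The age and sex of the animal, the tumor's driver alleles, the position of the guide and the number of edited clones do not appear in the sources read. The p-values below therefore measure the spread between 3 cultures of each population and cannot tell the guide from other differences between the populations.

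A Rab protein cycles between a GDP-bound form held in the cytosol and a GTP-bound form on a membrane, where it recruits motors, tethers and fusion factors. Exchange factors (GEFs) load it with GTP, TBC domain proteins (GAPs) return it to the GDP form, and lipid anchors added at C-terminal cysteines hold it in the membrane. Each Rab marks a compartment, and in the intestinal epithelium the Rab8, Rab11 and Rab25 proteins carry cargo to the apical, lumen-facing surface, the side that atypical protein kinase C helps to define.

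Each library held 2141125 to 3048170 reads, so that 1 read was worth 0.328 to 0.467 CPM, the unit that scales reads to the total of their library. A tag from the 3' end was counted for each transcript, and levels in CPM are not divided by gene length. Prkci itself was at 54.9 ± 8.6 CPM in sgScr and 52.4 ± 4.99 in sgPrkci (SD, n = 3), and a 3' tag outside an edited part does not check the edit. All 8 epithelial markers listed were detected and their summed level was 3553 to 4103 CPM in sgScr and 3830 to 4200 in sgPrkci. In the test described below, 2 of the 8 were higher and 2 lower in sgPrkci (50.0%, beside 31.8% of all genes tested). Of fibroblast, endothelial, leukocyte and hepatocyte markers, Pecam1, Cdh5, Emcn, Pdgfrb, Cd3e, Adgre1, Csf1r, Itgam, Ttr, Serpina1a and Tat had no reads or no entry. The summed level of the fibroblast list was 0.328 to 2.35 CPM in sgScr and 0.71 to 2.80 CPM in sgPrkci, and that of the endothelial list 0 to 1.01 and 0.355 to 0.467 CPM. The leukocyte list summed to 5.25 to 7.71 CPM in sgScr and 7.94 to 12.4 CPM in sgPrkci, most of it Cd68, and the hepatocyte list to 1.97 to 16.4 and 0.71 to 1.87 CPM, most of it Apoa1. Their part in the results was not tested.

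Most Rab genes did not pass the test between sgPrkci and sgScr. Of the 55, 44 reached 1 CPM in at least 3 libraries and were tested, 5 rose (Rab15, Rab27a, Rab27b, Rab11a and Rab2a), 3 fell (Rab23, Rab6a and Rab5c) and 36 did not pass. The called share was 18.2%, where 31.8% of all 12195 genes tested passed in either direction (11.4% higher and 20.5% lower). The median log2 fold change was 0.02 over the tested Rab genes and -0.11 over all genes tested. With TMM scaling the median of all genes was -0.02 and that of the Rab genes 0.12, 7 Rab genes were higher and 2 lower, and 1918 genes of all were higher and 1816 lower in place of 1387 and 2495. Library levels did not overlap between groups for 9 Rab genes that were higher and 6 that were lower, out of 44, while 43.0% of all genes tested did not overlap (15.9% higher and 27.1% lower). The summed level of the 55 genes was 4246 ± 101 CPM in sgScr and 4287 ± 129 in sgPrkci. In these bulk cultures, fewer cells of a type and less RNA per cell cannot be told apart. Log2 fold changes give sgPrkci over sgScr on the log2(CPM + 1) scale, where changes of low genes come out too small, and adjusted p-values are from limma over all genes tested.

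**Figure D1:**
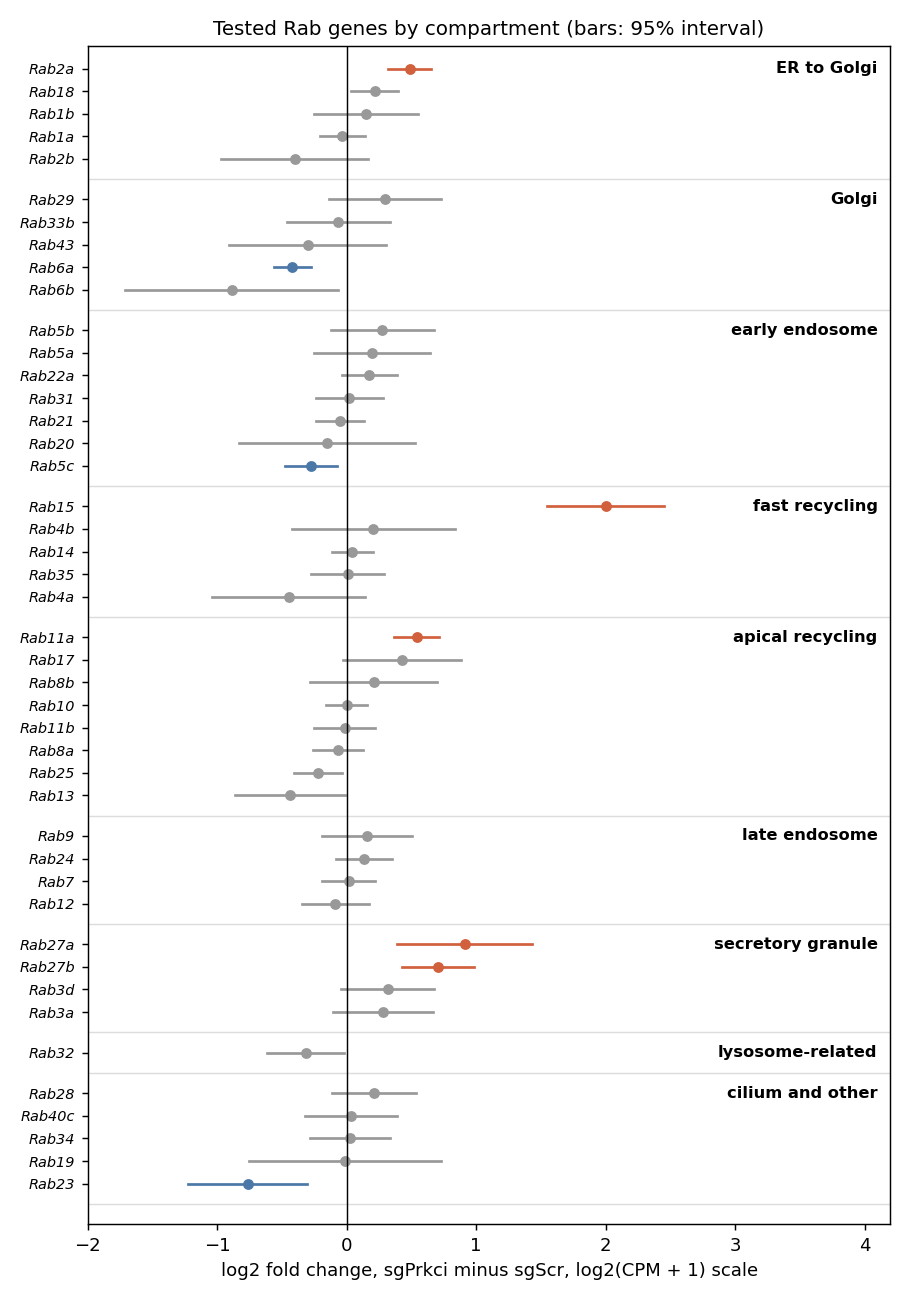
Log2 fold change (sgPrkci minus sgScr, log2(CPM + 1) scale, x axis) of the 44 tested Rab genes, grouped by compartment, with bars for the 95% interval from limma. The 5 genes that rose are orange, the 3 that fell are blue and the 36 that did not pass are grey, and Rab15 at 2.00 lies apart from the others.

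The promoters of 4 called genes are shown, picked by the size of their change. Rab15 and Rab11a had the largest rises, and Rab6a and Rab5c the largest falls, among called genes that averaged 10 CPM or more, had groups without overlap and had a promoter window used here. Rab25 was added beside Rab11a after its values were seen. Each run lies within 250 bases before the outermost RefSeq start (build GRCm38.p6), reads 5' to 3' on the gene's strand and leaves out bases in annotated exons. They lie at chr12:76822554-76822774 on the minus strand (Rab15), chr9:64737759-64738006 minus (Rab11a), chr7:100607336-100607409 plus (Rab6a), chr11:100738216-100738465 minus (Rab5c) and chr3:88548301-88548529 minus (Rab25). The Rab15 run lies before a RefSeq start but inside the GENCODE span of the gene, 76797960 to 76822908. Capitals mark matches, on either strand, to 7 motifs, each searched for by fixed letters. The AP-1 motif was taken as TGANTCA, where N is any base. For the E-box the letters were CACGTG, and for NF-kappaB they were GGGA and CC parted by any 4 bases. A GC box was read as GGGCGG, the core that Sp1 family factors bind. The CCAAT box is spelled by its name, and the TATA box was searched for as TATAAA. The cyclic AMP response element (CRE) was taken as TGACGTCA. No match of these printed runs overlaps another.
Rab15: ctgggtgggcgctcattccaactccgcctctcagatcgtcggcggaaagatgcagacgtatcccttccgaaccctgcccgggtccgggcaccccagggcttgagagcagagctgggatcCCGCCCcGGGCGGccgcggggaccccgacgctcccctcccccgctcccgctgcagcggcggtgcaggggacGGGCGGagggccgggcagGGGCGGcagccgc
Rab11a: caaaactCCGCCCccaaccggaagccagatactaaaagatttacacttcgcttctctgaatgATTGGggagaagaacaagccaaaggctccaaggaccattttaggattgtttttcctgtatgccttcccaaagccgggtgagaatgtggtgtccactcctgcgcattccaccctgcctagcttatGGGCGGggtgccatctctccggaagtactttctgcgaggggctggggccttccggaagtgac
Rab6a: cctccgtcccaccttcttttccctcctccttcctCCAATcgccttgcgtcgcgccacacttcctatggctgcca
Rab5c: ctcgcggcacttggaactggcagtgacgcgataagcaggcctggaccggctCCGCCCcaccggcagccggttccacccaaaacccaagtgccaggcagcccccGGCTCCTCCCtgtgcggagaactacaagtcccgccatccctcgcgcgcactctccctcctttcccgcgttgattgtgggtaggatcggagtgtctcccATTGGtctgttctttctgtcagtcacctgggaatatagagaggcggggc
Rab25: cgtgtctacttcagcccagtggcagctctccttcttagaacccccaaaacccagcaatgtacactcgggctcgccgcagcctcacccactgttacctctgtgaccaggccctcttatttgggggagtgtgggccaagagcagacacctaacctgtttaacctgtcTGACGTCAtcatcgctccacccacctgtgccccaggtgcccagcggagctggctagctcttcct
Rab15 held 4 GC boxes and Rab11a 2 GC boxes and a CCAAT box. The short Rab6a run held a CCAAT box, and Rab5c held a GC box, a CCAAT box and a match to the NF-kappaB letters. Rab25 held a CRE and no other match. Over all 32851 promoter windows of 250 bases, a GC box was found in 32.7%, a CCAAT box in 33.8%, the NF-kappaB letters in 17.6%, a TATA box in 12.4%, AP-1 in 6.75%, an E-box in 6.02% and a CRE in 1.55%. A match is a description of the letters and not evidence of binding.

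The ER-to-Golgi Rabs differed among themselves. Rab2a, which acts in transport between the endoplasmic reticulum and the Golgi (chromosome 4, 8535644 to 8607778), was at 236, 257 and 269 CPM in sgScr replicates 1 to 3 and at 357, 343 and 368 CPM in sgPrkci replicates 1 to 3. All 3 sgPrkci libraries lay above all 3 sgScr libraries, and Rab2a rose by a log2 fold change of 0.49 (SE 0.08, adjusted p = 2.9e-05). The 2 tested genes within 1 Mb that averaged 10 CPM or more both rose, with a median of 0.53. Their part in the rise of Rab2a was not tested. Rab2b, the paralog of Rab2a, was low, at 5.28 ± 1.22 CPM in sgScr and 3.69 ± 0.118 in sgPrkci (adjusted p = 0.29). Every 75-base stretch at its 3' end is shared with Gm43766, annotated on the opposite strand, which averaged 0.119 CPM. Exons of Rab2b also overlap the opposite-strand gene Tox4, which averaged 36.7 CPM, and whether counting used strand is not stated. Rab1a, required for vesicles to leave the endoplasmic reticulum, was at 312 ± 8.95 CPM in sgScr and 306 ± 30.6 in sgPrkci, with a 95% interval of -0.21 to 0.14 for its log2 fold change. Its paralog Rab1b had a log2 fold change of 0.15 and did not pass. Rab18, tied to lipid droplets and the endoplasmic reticulum, was at 154, 169 and 175 CPM in sgScr and 197, 199 and 183 in sgPrkci. Those groups did not overlap, yet Rab18 missed the threshold (log2 fold change 0.22 with an SE of 0.09, adjusted p = 0.064). It passed under TMM, median-of-ratios, edgeR, DESeq2 and 2 other settings. Within a library the ratio of Rab2a to Rab1a reads, which no library scaling can change, was 0.814 ± 0.0371 in sgScr and 1.18 ± 0.164 in sgPrkci.

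Among the Golgi Rabs the change was in Rab6a, which directs traffic within the Golgi and back to the endoplasmic reticulum. Rab6a (chromosome 7, 100607410 to 100641268) was at 900.1, 924 and 946 CPM in sgScr and 714, 652 and 704 in sgPrkci. It fell by a log2 fold change of -0.42 (SE 0.07, adjusted p = 2.8e-05), with every sgPrkci library below every sgScr library. Its neighbours moved as well: the 15 tested genes within 1 Mb that averaged 10 CPM or more had a median log2 fold change of -0.33, 3 of them higher and 8 lower, while the median of chromosome 7 was -0.08. Their part in the fall was not tested. The paralog Rab6b was at 2.05 ± 1.24 CPM in sgScr and 0.614 ± 0.572 in sgPrkci (log2 fold change -0.89 with an SE of 0.40, adjusted p = 0.093). The other tested Golgi members, Rab29, Rab33b and Rab43, did not pass, with log2 fold changes of 0.30, -0.06 and -0.30. The ratio of Rab2a to Rab6a reads was 0.275 ± 0.0114 in sgScr and 0.516 ± 0.0142 in sgPrkci.

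**Figure D2:**
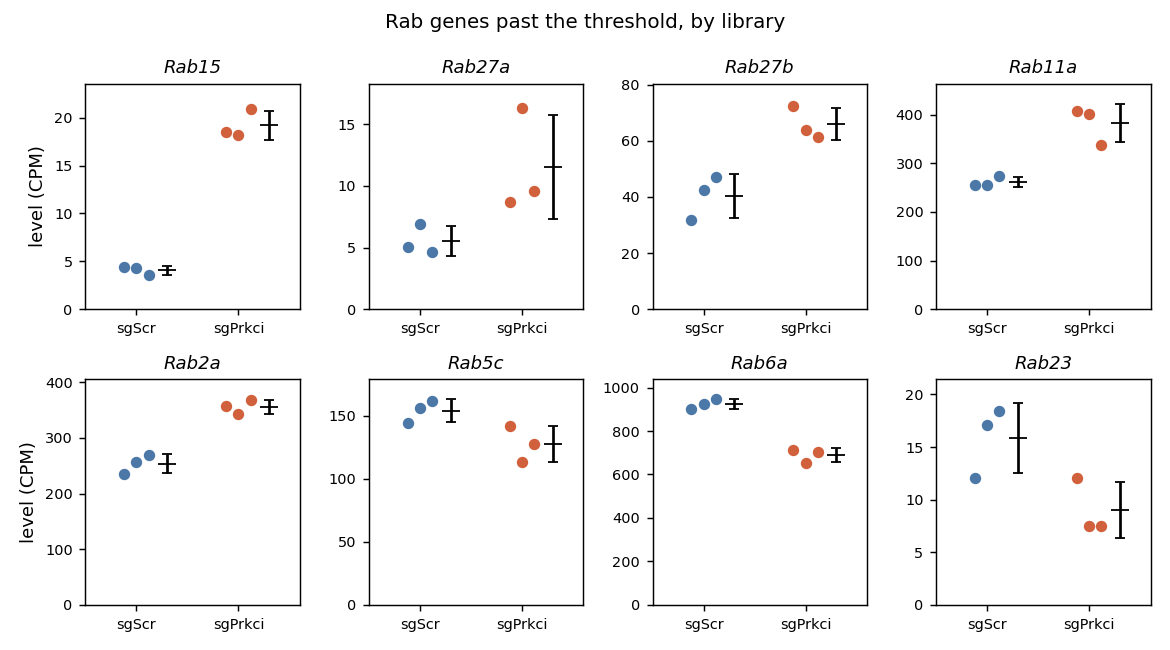
Level in CPM (y axis, from 0) of the 8 Rab genes past the threshold, with a point for each library and the mean ± SD of 3 beside them. Rab15, Rab27a, Rab27b, Rab11a and Rab2a lie higher in all 3 sgPrkci libraries, Rab6a and Rab5c lie lower, and for Rab23 sgPrkci replicate 1 reaches the level of sgScr replicate 1.

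The early endosome Rabs held a single call among 7 tested members, a share of 14.3% beside 31.8% of all genes tested. Rab5c, 1 of the paralogs that drive fusion of endocytic vesicles (chromosome 11, 100715009 to 100738215), was at 144, 156 and 162 CPM in sgScr and 141, 113 and 128 in sgPrkci. The groups lay close without overlapping, and Rab5c fell by a log2 fold change of -0.27 (SE 0.10, adjusted p = 0.032). The median of chromosome 11 was -0.40 and that of 27 neighbours within 1 Mb -0.35, and with chromosome medians removed the log2 fold change of Rab5c was 0.12 (adjusted p = 0.38). Its call also ended with TMM (adjusted p = 0.19), with edgeR and DESeq2, and without sgScr replicate 2, sgScr replicate 3, sgPrkci replicate 2 or sgPrkci replicate 3. Rab5a was at 10.7 ± 1.6 CPM in sgScr and 12.6 ± 3.3 in sgPrkci, and Rab5b at 15.7 ± 1.51 and 19.6 ± 5.64 CPM, neither past the threshold. Rab21, which binds integrins on endosomes, and Rab22a, Rab31 and Rab20 did not pass either, with log2 fold changes of -0.05, 0.18, 0.02 and -0.15. Rab1a and Rab34, also on chromosome 11, had log2 fold changes of -0.03 and 0.02, which became 0.36 (adjusted p = 0.0015) and 0.42 (adjusted p = 0.031) with chromosome medians removed.

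Rab15, a regulator of recycling from early endosomes known chiefly from neurons, had the largest change of the family. Rab15 (chromosome 12, 76797960 to 76822908) was at 4.36, 4.26 and 3.54 CPM in sgScr and at 18.5, 18.2 and 21 in sgPrkci. These levels are 36 and 147 reads in all, a mean 4.74 times as high in sgPrkci. The rise was a log2 fold change of 2.00 (SE 0.22, 95% interval 1.55 to 2.45, adjusted p = 3.3e-08), far wider than the spread within either group. It was called in all 18 alternative settings, with log2 fold changes of 1.42 to 2.35. The 10 neighbours of Rab15 within 1 Mb had a median of -0.04 and its chromosome one of 0.05. The other 4 members of the fast recycling group gave no call. Rab14, of recycling endosomes and the Golgi, was at 420 ± 14.2 CPM in sgScr and 433 ± 28.7 in sgPrkci. Rab35, which also acts at the forming lumen of epithelial cysts, was at 37.2 ± 4.69 and 37.2 ± 1.12 CPM. Rab4a and Rab4b, of fast recycling, were at 5.18 ± 0.893 and 2.80 ± 0.938 CPM in sgScr and at 3.61 ± 1.23 and 3.29 ± 0.1 in sgPrkci.

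In the apical recycling group 1 of 8 members rose, none fell and 7 did not pass. That called share of 12.5% lay below the 31.8% of all genes tested. The summed level of the 8 genes was 1032 ± 30.8 CPM in sgScr and 1122 ± 39.4 in sgPrkci. Rab11a, the main GTPase of the recycling endosome beneath the apical surface (chromosome 9, 64715299 to 64737758), was at 255, 256 and 274 CPM in sgScr and 408, 401 and 337 in sgPrkci. The lowest sgPrkci library, replicate 3, was still above every sgScr library, and Rab11a rose by a log2 fold change of 0.54 (SE 0.09, adjusted p = 1.3e-05). It passed in all 18 settings, with log2 fold changes of 0.49 to 0.65. Rab25, its epithelial relative (chromosome 3, 88542029 to 88548300), was at 165, 165 and 172 CPM in sgScr and 157, 133 and 141 in sgPrkci. Those groups lay apart in the lower direction, but Rab25 did not pass (log2 fold change -0.22 with an SE of 0.09, adjusted p = 0.067). Of the 18 alternative settings only 1, without sgPrkci replicate 1, called Rab25 (adjusted p = 0.046). Over the 18 its log2 fold change ran from -0.29 to -0.11, with adjusted p-values up to 0.54. Rab11b, a paralog of Rab11a, was at 66.7, 73.2 and 63.1 CPM in sgScr and 63.7, 62.6 and 74.9 in sgPrkci, with overlapping groups and a 95% interval of -0.25 to 0.22. Reads of Rab11a per read of Rab25 numbered 1.54, 1.55 and 1.59 in sgScr and 2.60, 3.01 and 2.39 in sgPrkci. Per read of Rab11b they were 3.89 ± 0.432 in sgScr and 5.77 ± 1.1 in sgPrkci. The ratios given here were among 6 computed and were chosen after the levels of both genes were seen, so they are descriptions with no test.

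**Figure D3:**
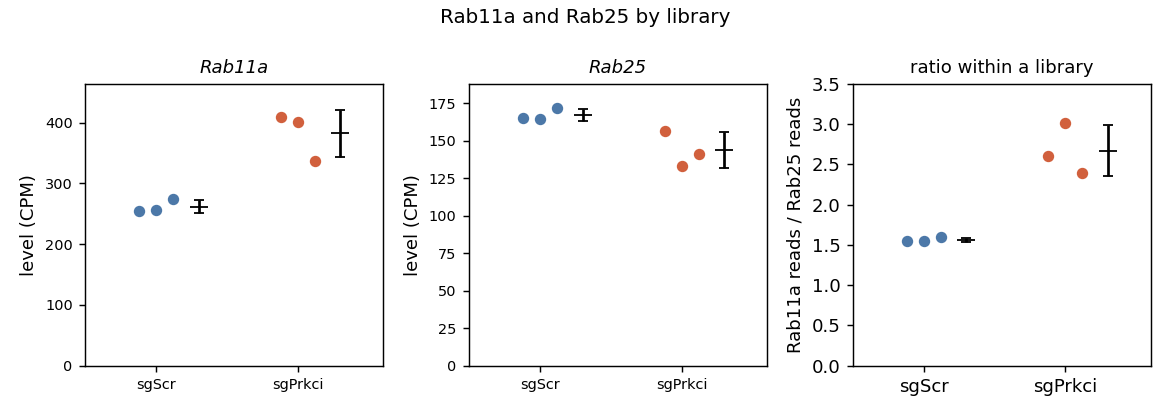
Level in CPM of Rab11a and Rab25 and the ratio of their reads (y axes, from 0), with a point for each library and the mean ± SD of 3. Rab11a is higher and Rab25 lower in all 3 sgPrkci libraries, and the ratio goes from 1.56 ± 0.027 in sgScr to 2.67 ± 0.317 in sgPrkci.

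The Rab8 and Rab10 genes, whose proteins deliver vesicles to the plasma membrane and cilium, gave no call. Rab8a was at 132, 127 and 144 CPM in sgScr and 122, 129 and 133 in sgPrkci, with overlapping groups and a 95% interval of -0.26 to 0.13. Rab8b was at 5.70, 7.87 and 6.38 CPM in sgScr and 7.54, 8.41 and 7.46 in sgPrkci. Rab10 was at 385, 351 and 377 CPM in sgScr and 381, 366 and 365 in sgPrkci, with overlapping groups and a 95% interval of -0.16 to 0.16. The signs of Rab8a, Rab10 and Rab11b turned under TMM, median-of-ratios, edgeR and DESeq2. Rab13, which acts at tight junctions, was at 18.1, 11.5 and 16.3 CPM in sgScr and 10.9, 10.3 and 11.4 in sgPrkci (log2 fold change -0.44 with an SE of 0.21, adjusted p = 0.11). Rab17, an epithelial Rab of transcytosis, was at 9.39, 8.20 and 7.09 CPM in sgScr and 9.81, 13.5 and 11 in sgPrkci (log2 fold change 0.43 with an SE of 0.22, adjusted p = 0.15). Neither pair of groups overlapped, and neither gene passed with all 6 libraries on the deposited scale.

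The secretory granule Rabs held 2 calls among 4 tested members, and all 4 had a positive log2 fold change, where 31.8% of all genes tested were called and 4874 of 12195 were positive. Rab27a and Rab27b dock granules and lysosome-related organelles at the plasma membrane. Rab27b (chromosome 18, 69979131 to 70141605) was at 31.8, 42.3 and 47.1 CPM in sgScr and 72.4, 64.0 and 61.4 in sgPrkci. The groups lay apart and Rab27b rose by a log2 fold change of 0.71 (SE 0.14, adjusted p = 0.00017), while its 5 neighbours within 1 Mb had a median of -0.20. Rab27a (chromosome 9, 73044854 to 73097629) was at 5.03, 6.89 and 4.61 CPM in sgScr and 8.67, 16.3 and 9.59 in sgPrkci. It rose by a log2 fold change of 0.91 (SE 0.25, adjusted p = 0.0064). Replicate 2 of sgPrkci was the highest, and without it the log2 fold change was 0.65 and the call ended (adjusted p = 0.079). The exocytic Rab3 genes did not pass: Rab3d was at 17.1 ± 1.68 CPM in sgScr and 21.6 ± 2.51 in sgPrkci, and Rab3a at 15.3 ± 2.12 and 19 ± 3.9 CPM. The summed level of the group was 78.8 ± 6.16 CPM in sgScr and 118 ± 3.01 in sgPrkci. Rab3b, Rab3c, Rab26 and Rab37 were not tested for lack of reads.

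The 4 late endosome Rabs and 1 lysosome-related Rab tested showed no call, where 31.8% of all genes tested were called. Rab7, which controls fusion of late endosomes with lysosomes, was at 140.1 ± 8.43 CPM in sgScr and 142 ± 17.4 in sgPrkci, with a 95% interval of -0.19 to 0.22. Rab9, Rab12 and Rab24, of late endosomes, lysosomes and autophagosomes, had log2 fold changes of 0.15, -0.09 and 0.13. Rab32, of lysosome-related organelles, was at 40.2 ± 3.5 CPM in sgScr and 32.3 ± 5.39 in sgPrkci (adjusted p = 0.1).

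Of the Rabs tied to cilia or placed less firmly, Rab23, which restrains Hedgehog signalling, gave the call. Rab23 (chromosome 1, 33719887 to 33742564) was at 12.1, 17.1 and 18.4 CPM in sgScr and 12.1, 7.47 and 7.46 in sgPrkci. It fell by a log2 fold change of -0.76 (SE 0.22, adjusted p = 0.0094), although sgPrkci replicate 1 matched sgScr replicate 1. The call ended without sgScr replicate 2 (adjusted p = 0.058) or sgScr replicate 3 (adjusted p = 0.055), with DESeq2 (adjusted p = 0.11) and with plain moderation (adjusted p = 0.054). Rab28 and Rab34, of the cilium, Rab40c, part of a ubiquitin ligase, and Rab19 did not pass, with log2 fold changes of 0.21, 0.02, 0.03 and -0.02.

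The 11 members not tested had at most 3 reads in a library. Rab3c and Rab42 had 0 reads in all 6 libraries, where a floor of 3 reads is 0.984 to 1.40 CPM. Rab7b, Rab26, Rab30, Rab33a, Rab36, Rab37, Rab39b, Rab3b and Rab40b had a few reads each, which allows no comparison at this depth. The annotated symbols Rab9b, Rab38, Rab39 and Rab44 were not analysed here. Of the 36 tested genes that did not pass, 20 had a 95% interval within 1.5-fold either way, while the intervals of the other 16 reach further.

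Reads of 75 bases from the last 500 bases of the transcripts would be unique for most of the called genes. Rab15, Rab2a, Rab27b, Rab6a, Rab5c and Rab23 shared no exact 75-base stretch with another gene, while 1.94% of the stretches of Rab11a and 2.38% of those of Rab27a were shared. Exons of Rab6a overlap the opposite-strand gene Mrpl48, which had a mean level of 25.9 CPM, and whether counting used strand is not stated. Of members that were not called, Rab4b shared 98.6% of its stretches, Rab33b 50.2%, Rab43 49.1% and Rab5a 34.5%, so their reads are less certain.

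Genes that act on Rabs were read from the same test. Of 114 tested regulators and effectors, 10 rose and 18 fell, a called share of 24.6% beside 31.8% of all genes, and their median log2 fold change was -0.03 beside -0.11. With TMM scaling 15 were higher and 13 lower.

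Exchange factors and effectors of Rab5 were called in both directions. Of 31 tested exchange factors 6 fell and 1 rose, a called share of 22.6% beside 31.8% of all genes, of which 20.5% were lower. Gapvd1, an exchange factor for Rab5, was at 135, 119 and 132 CPM in sgScr and 96.6, 84.1 and 98.0 in sgPrkci (log2 fold change -0.47 with an SE of 0.10, adjusted p = 0.00064). Rin1, another Rab5 exchange factor, fell from 40.2 ± 5.52 to 24.4 ± 1.4 CPM (adjusted p = 0.00057). Rin2, of the same family, was the 1 that rose, from 35.8 ± 3.64 to 51.0 ± 3.46 CPM (adjusted p = 0.004). Among 28 tested effectors of endosomal and secretory Rabs 6 rose and 2 fell (28.6% called), and both that fell bind Rab5. Rabep1 (rabaptin 5) was at 139, 134 and 113 CPM in sgScr and 66.4, 81.3 and 78.1 in sgPrkci (log2 fold change -0.77 with an SE of 0.11, adjusted p = 2.7e-06). It lies on chromosome 11, whose median was -0.40. Rabep1 was called in all 18 alternative settings, with log2 fold changes of -0.86 to -0.37. The tether gene Eea1 was at 361, 341 and 337 CPM in sgScr and 269.7, 295 and 296 in sgPrkci (log2 fold change -0.27 with an SE of 0.08, adjusted p = 0.0099). Groups did not overlap for any of these 5 genes. The call of Eea1 ended with TMM (adjusted p = 0.12) and with chromosome medians removed (adjusted p = 0.38), and without sgPrkci replicate 1 (adjusted p = 0.074). Appl2, which marks early Rab5 endosomes, was by contrast among the 6 that rose, from 181 ± 13.2 to 249 ± 17.4 CPM (adjusted p = 0.00019).

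The called effectors of Rab27, Sytl2 and Mlph, both rose. Sytl2, which tethers Rab27 granules and vesicles to the plasma membrane, was at 3.35, 4.26 and 3.19 CPM in sgScr and 26.8, 27.6 and 25.6 in sgPrkci. The groups lay far apart, and Sytl2 rose by a log2 fold change of 2.59 (SE 0.21, adjusted p = 9.7e-11). Mlph (melanophilin), which links Rab27a to myosin Va, rose from 80.1 ± 6.1 to 128 ± 4.91 CPM (log2 fold change 0.67, adjusted p = 6.2e-06). The motor gene Myo5a, counted here with the Rab11 partners and myosin V motors, fell from 104 ± 16.2 to 54.0 ± 3.46 CPM (log2 fold change -0.92 with an SE of 0.12, adjusted p = 5.9e-07). Other Rab27 partners gave no call. Unc13d was at 17.1 ± 1.1 CPM in sgScr and 17.6 ± 0.444 in sgPrkci, Sytl1 and Sytl5 had adjusted p-values of 0.11 and 0.26, and Sytl4 had 1 read in each group. Micall2, Rilpl2 and Golga2 were the remaining effectors that rose. Micall2 was called in all 18 alternative settings, Rilpl2 in 16 (not without sgScr replicate 2, adjusted p = 0.068) and Golga2 in 13, with its call lost without sgScr replicate 2, sgScr replicate 3, sgPrkci replicate 1 or sgPrkci replicate 3.

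Of the 8 genes for Rab11 partners and myosin V motors, 3 fell and 1 rose (50.0% called, beside 31.8% of all genes). Rab11fip2, which couples Rab11 to myosin Vb, was at 14.4, 18.4 and 20.6 CPM in sgScr and 8.30, 10.3 and 10.7 in sgPrkci (log2 fold change -0.80 with an SE of 0.20, adjusted p = 0.003). The call of Rab11fip2 ended with DESeq2 only (adjusted p = 0.054). Rab11fip5 fell from 78.8 ± 2.74 to 62.1 ± 5.62 CPM (adjusted p = 0.019). Its call ended in 8 of the 18 alternative settings, among them TMM (adjusted p = 0.1), edgeR and DESeq2. Omission of sgScr replicate 3 or sgPrkci replicate 2 was also among the 8. Myo5b, the motor of the apical recycling endosome whose loss causes microvillus inclusion disease, rose from 56.0 ± 4.93 to 69.9 ± 2.42 CPM (log2 fold change 0.32 with an SE of 0.12, adjusted p = 0.034). That call ended on leaving out any of sgScr replicate 2, sgScr replicate 3 and the 3 sgPrkci libraries in turn, with adjusted p-values of 0.05 to 0.12. Rab11fip1, Rab11fip3, Rab11fip4 and Myo5c did not pass, with log2 fold changes of 0.06, -0.33, 0.49 and 0.10. Sh3bp5, an exchange factor for Rab11, fell from 33.1 ± 2.62 to 16.9 ± 1.81 CPM (log2 fold change -0.93, adjusted p = 4.6e-05), and Rab3ip (Rabin8), which activates Rab8, from 37.7 ± 6.79 to 23.7 ± 2.42 CPM (adjusted p = 0.0024). Mon1b, of the Rab7 exchange factor, and Dennd5a were the other exchange factors that fell. Dennd5a was called in 9 of the 18 alternative settings and lost its call with TMM (adjusted p = 0.058), edgeR and DESeq2, and without sgScr replicate 1, sgPrkci replicate 2 or sgPrkci replicate 3. Mon1b was called in 14, and lost its call with DESeq2, with chromosome medians removed (adjusted p = 0.097) and without sgScr replicate 1 or sgPrkci replicate 3.

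**Figure D4:**
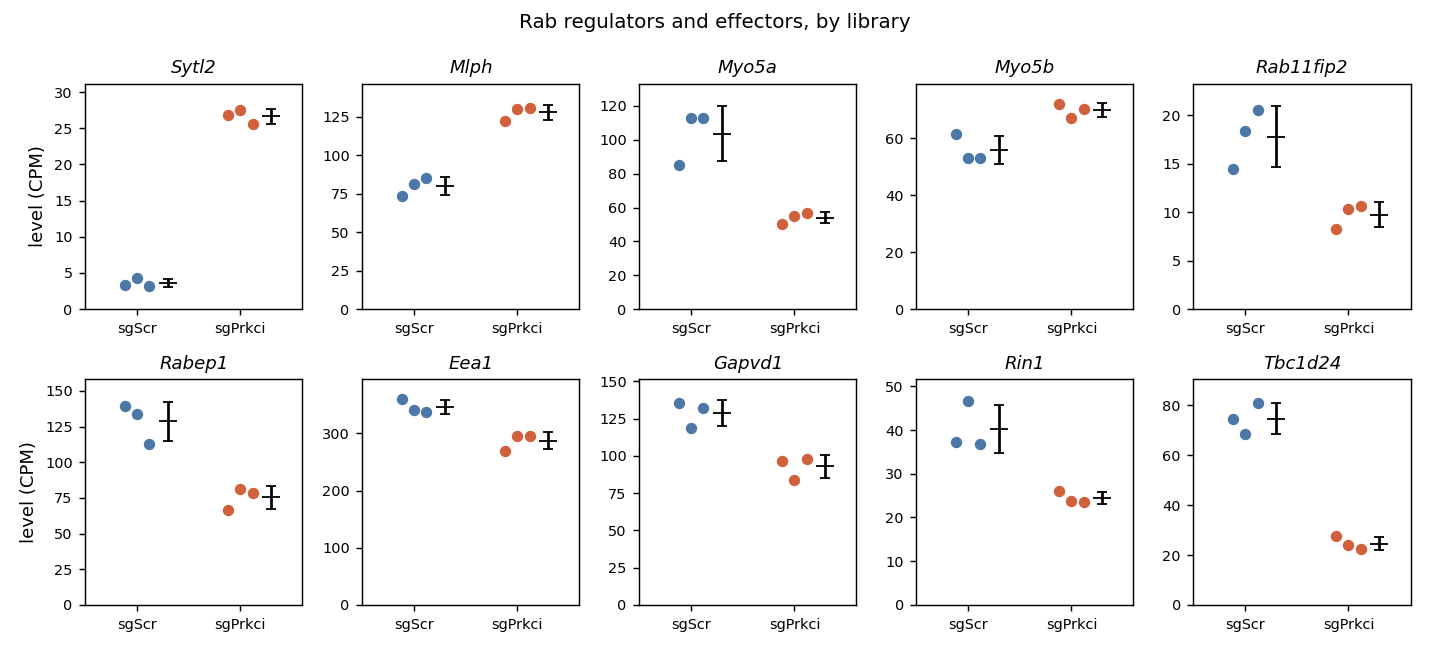
Level in CPM (y axis, from 0) of 10 regulators and effectors, with a point for each library and the mean ± SD of 3. Sytl2, Mlph and Myo5b are higher and the other 7 genes lower in all 3 sgPrkci libraries, and Tbc1d24 and Sytl2 have the largest fold differences of the 10.

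Among 30 tested TBC domain genes 5 fell and 1 rose, a called share below the 31.8% of all genes, of which 20.5% were lower. Tbc1d24, known for vesicle traffic in neurons, was at 74.8, 68.6 and 80.8 CPM in sgScr and 27.5, 23.8 and 22.4 in sgPrkci. It fell by a log2 fold change of -1.57 (SE 0.13, adjusted p = 1.6e-10), with groups that lay far apart. Tbc1d7, a subunit of the TSC complex, fell from 18.7 ± 2.62 to 10.1 ± 1.39 CPM (adjusted p = 0.0017), and Tbc1d2, which turns off Rab7, from 25.8 ± 2.37 to 15.4 ± 2.19 CPM (adjusted p = 0.0021). Tbc1d5 and Usp6nl were the other members that fell, and Rabgap1l was the 1 that rose, from 111 ± 12.2 to 146 ± 3.55 CPM (adjusted p = 0.0022). The call of Rabgap1l ended with chromosome medians removed (0.22, adjusted p = 0.11) and with plain moderation, and that of Usp6nl in 3 settings, DESeq2 among them. Tbc1d5 lost its call in 7 settings, among them TMM (adjusted p = 0.058), edgeR, DESeq2 and omission of sgScr replicate 3 or sgPrkci replicate 1. The exocyst is the tether that Rab8 and Rab11 vesicles use at the plasma membrane. Of its 9 genes 2 fell (22.2% called, beside 31.8% of all genes). Exoc8 fell from 25.0 ± 5.8 to 15.7 ± 0.519 CPM (adjusted p = 0.011) and Exoc4 from 52.9 ± 3.51 to 40.3 ± 4.09 CPM (adjusted p = 0.021). Exoc4 was called in 9 of the 18 alternative settings and lost its call with TMM (adjusted p = 0.091), edgeR and DESeq2, among others. It was also lost without sgScr replicate 1, sgPrkci replicate 2 or sgPrkci replicate 3. Exoc8 was called in 13, and not without sgScr replicate 2 (adjusted p = 0.1) or with DESeq2 (adjusted p = 0.11). With chromosome medians removed the log2 fold change of Exoc8 was -0.33 (adjusted p = 0.19).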

How the data were processed

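The deposited table holds CPM per gene and library, made by the authors from reads scaled to each library's total. The submitters' processing notes name GRCm38. Per the labels' protocols, a 3' tag kit was used on total RNA. Aligner, counting program and use of molecular identifiers: not given in the sources used here. Every value was a whole multiple of 1 read (100% of 124536 values within 1e-06 of a read), which gave back the reads.

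GENCODE M21 gave names and positions for all but 81 identifiers, and RefSeq gave promoter windows for 46 of the 55 Rab genes. Genes at 1 CPM or more in at least 3 libraries (12195) were tested with limma 3.58.1 in R 4.3.3 on log2(CPM + 1), with variance trend and robust moderation, two-sided, with Benjamini-Hochberg adjustment and a threshold of 0.05. On the recovered reads, edgeR 4.0.16 called 3739 genes and DESeq2 1.42.0 called 2540, as alternatives. Groups came from the genotype labels, and replicate numbers follow accession order and pair no samples. No pair of libraries of a group agreed within sampling noise (chi-square per degree of freedom 1.71 to 3.40). On simulated data the fit recovered 19.4% of 1.5-fold changes, 63.6% of 2-fold changes and 95.1% of 4-fold changes. Of its calls there, 0.877% were false. That simulation changed 194 of 12121 genes, far fewer than were called here, so its shares need not hold for these data. Floors and intervals of counts cover counting error only.

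The members, compartments, regulator lists and tests were chosen with earlier results of these data known. Called members and the apical group are given by library. Of each regulator list up to 3 called genes with the lowest p were to be named. Others named, such as Rab18, Rin2, Myo5b, Eea1, Appl2, Rab3ip and Rabgap1l, were chosen after their values were seen. Protein sequences were not used here, and some genes of the lists are not reported here.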

Additional observations from a re-analysis of the deposited data

How the results depend on the processing

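Each result was recomputed in 18 ways: 2 other pseudocounts (0.25 and 5 CPM), 2 other filters (none beyond 1 read, or 5 CPM), scaling by TMM, by median-of-ratios, by quantiles or by totals without Gm42418 and mitochondrial genes, plain eBayes moderation, edgeR, DESeq2, removal of chromosome medians, and omission of each library. Across them Rab15, Rab11a, Rab2a, Rab27b and Rab6a kept their direction and their call. Rab27a lost its call once, Rab23 in 4 settings and Rab5c in 10. In limma 3882 genes were called, and 2540 with DESeq2. The count of lower Rab genes, 3, became 1 with DESeq2 and with plain moderation, where the cause was not tested. The count of higher Rab genes, 5, became 10 with chromosome medians removed, where Rab1a turned to 0.36 (adjusted p = 0.0015), Rab5c to 0.12, Rab8a to 0.21 and Rab11b to 0.054. That setting treats each chromosome's median as known. Regulators and effectors that were lower numbered 18, and 8 with DESeq2. The median log2 fold change of the Rab genes, 0.02, was 0.12 with TMM, 0.12 with median-of-ratios, 0.13 with edgeR, 0.13 with DESeq2, 0.12 with quantile scaling and 0.13 with chromosome medians removed, while that of all genes was -0.12 to -0.01 over the settings.

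Under other scalings and tools, signs turned for genes that were not called. With TMM, median-of-ratios, edgeR and DESeq2, Rab10 was at 0.10, 0.10, 0.10 and 0.10, Rab11b at 0.088, 0.088, 0.096 and 0.095, Rab1a at 0.069, 0.070, 0.072 and 0.072, Rab8a at 0.037, 0.037, 0.038 and 0.038, and Prkci at 0.042, 0.043, 0.032 and 0.034. With quantile scaling Rab10 was at 0.0046, Rab11b at 0.037 and Prkci at 0.0058, and with the reduced totals Rab10 was at 0.018 and Rab11b at 0.0039.

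Leaving out 1 library gave 2852 to 3794 calls, 4 to 5 higher and 1 to 4 lower Rab genes, with 1 lower without sgScr replicate 3, 8 to 10 higher and 16 to 19 lower regulators, and a Rab median of -0.010 to 0.084. Log2 fold changes then ran from -0.040 to 0.027 for Rab10, -0.095 to 0.043 for Rab11b, -0.078 to 0.053 for Rab1a, -0.054 to 0.11 for Rab34 and -0.17 to 0.052 for Prkci. No paired analysis was possible because the labels give the groups no shared replicate numbers. Depth limits the genes under about 10 CPM. Of the called genes, Rab15 held 36 reads and Rab27a 49 reads in the sgScr group. Rab6b, tested and not called, held 18 reads in sgScr and 5 in sgPrkci.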

Other observations

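Across the family, 38 of 58 RefSeq promoter windows (65.5%), from 46 Rab genes, held a GC box, and 32.7% of all windows did. For CCAAT boxes the shares were 37.9% and 33.8%, for the NF-kappaB letters 10.3% and 17.6% and for AP-1 3.45% and 6.75%. Windows of 1 gene overlap in part, so these shares are descriptions with no test.

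The surroundings of the called genes differed in direction. Within 1 Mb, 18 neighbours of Rab11a had a median log2 fold change of -0.15, 12 neighbours of Rab27a one of -0.11 and 7 neighbours of Rab23 one of -0.14. Rab2a had 2 such neighbours, with a median of 0.53, and both rose. For Rab25 the median of 42 neighbours was -0.18, with 3 higher and 16 lower. The ratio of Rab27b to Rab27a reads overlapped between groups, at 7.57 ± 2.31 in sgScr and 6.22 ± 2.22 in sgPrkci.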
